A study of Mus musculus with 12 samples.

Results

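Untreated mouse tumours grown from TS/A cells together with cancer-associated fibroblasts (CAF) were described from their RNA. The series holds 12 tumour libraries, and the 3 labelled with the treatment "None" are described here. All 3 carry the genotype label WT, and the design text counts this group as the vehicle arm. The other arms received radiotherapy, muFAP-4-1BBL or both and are not analysed here. The labels give no mouse strain, age, sex, growth site or mixing ratio of the 2 cell types, and nothing ties a library to an animal. The spread between the 3 libraries may therefore be partly technical.

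TS/A is a mammary carcinoma line that arose in a BALB/c mouse. Cancer-associated fibroblasts are activated connective tissue cells that lay down and remodel matrix, and many carry fibroblast activation protein (Fap), a surface protease. The receptor 4-1BB, encoded by Tnfrsf9, gives a costimulatory signal to activated T and natural killer cells when it binds its ligand, encoded by Tnfsf9. A bulk tumour library mixes the RNA of carcinoma cells, fibroblasts, vessels, infiltrating immune cells and any tissue taken with the tumour. In such data fewer cells of a type and less RNA per cell cannot be told apart.

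Libraries 1, 2 and 3 held 35176469, 38174041 and 37074120 counts, and 24260, 25294 and 24171 genes had at least 1 count. Between 1.28% and 1.41% of counts came from mitochondrial genes, and between 4.57% and 5.22% from ribosomal protein genes. The libraries were not copies of each other, with a chi-square of 18.6 to 44.4 per degree of freedom between pairs. Levels are given as TPM, which divide each count by the gene's exon length before scaling to a common total and so allow genes to be compared. CPM, which scale counts by library size with a TMM factor, are used to compare 1 gene between libraries. Some lists are described by how many members were highest or lowest in a library. The same share over all genes was not computed, so such counts describe order only. Ribosomal protein genes leaned too: of 84 with a mean of 1 CPM or more, 61, 2 and 21 were highest in libraries 1, 2 and 3. By the same CPM, 7, 47 and 30 of them were lowest there. A gene is called expressed at 1 TPM or more in all 3 libraries.

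By that rule 14496 of 56884 listed genes (25.5%) were expressed, with a median of 22.0 TPM. Of 21749 protein-coding genes, 12231 (56.2%) were expressed, and of 9898 long non-coding genes 738 were. Counts of expressed list members below are to be read against the 56.2%. The luminal, adipocyte, nerve, platelet and Hox lists, among others, lay near or under it. The RNA was concentrated in few genes. The 120 genes at 1000 TPM or more held 28.9% of all TPM, and 1690 genes between 100 and 1000 TPM held a further 38.2%. At the other end 12514 genes were detected below 1 TPM and together held 0.300%, and 28616 had no count in any library.

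With mitochondrial, ribosomal protein and predicted genes set aside, the most abundant named transcripts came from antigen presentation, the cytoskeleton, translation and macrophages. B2m, the light chain of MHC class I, stood first among them at 12567 ± 343 TPM (SD, n = 3, as for all means here). Eef1a1, a translation elongation factor, followed at 11648 ± 256 TPM, and Lgals1, the secreted lectin galectin-1, at 7094 ± 57.5 TPM. H2-D1, a class I heavy chain, averaged 5547 ± 196 TPM, Actb 4449 ± 445 TPM, Cd74, the class II invariant chain, 4306 ± 690 TPM and Vim, the mesenchymal intermediate filament, 3392 ± 201 TPM. Lyz2 and C1qa, a lysozyme and a complement chain of macrophages, reached 3153 ± 584 and 2363 ± 248 TPM. A gene without a symbol in the annotation used, ENSMUSG00000119584.1 on chromosome 17, was listed at 13756, 6956 and 7754 TPM in libraries 1, 2 and 3, so its level in library 1 was well above the other 2.

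**Figure D1:**
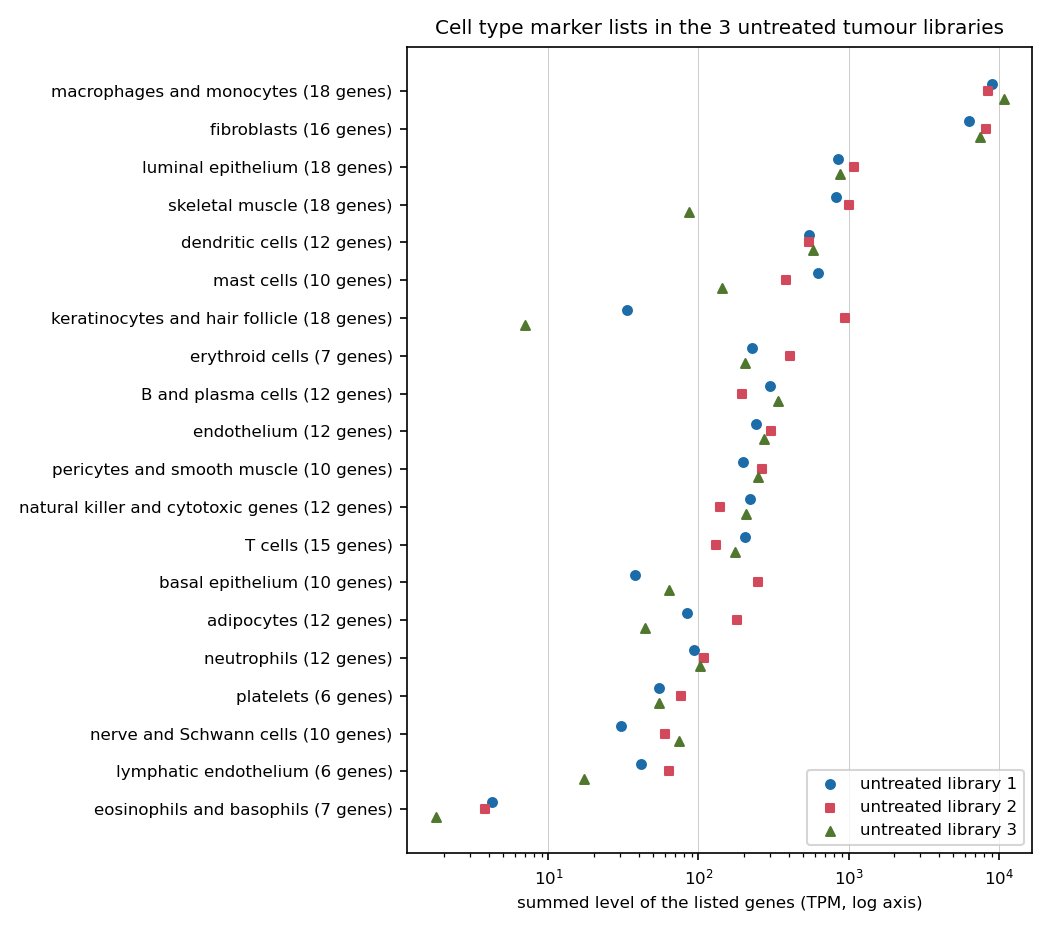
Summed TPM (log axis) of 20 cell type marker lists in each untreated library, ordered by mean, with circles, squares and triangles for libraries 1, 2 and 3. Macrophage and fibroblast lists stand at the top in all 3 libraries, whereas the hair, muscle and mast cell lists spread widely between libraries.

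Luminal epithelial genes were expressed in part. Of 18 luminal epithelial markers, 8 were expressed, and most of their summed TPM came from the paired keratins Krt8 and Krt18. Krt8 had 550, 698 and 606 TPM in libraries 1, 2 and 3, and Krt18 had 199, 235 and 174 TPM. Spint2, a membrane protease inhibitor of epithelia, was even at 64.8 ± 1.93 TPM, and Krt19 averaged 25.2 ± 7.08 TPM. Adhesion and junction genes were far lower. Cdh1, which encodes E-cadherin, had 3.20, 7.35 and 2.64 TPM, and Epcam, a surface marker of most carcinomas, had 15, 157 and 3 counts, or 0.666, 6.75 and 0.133 TPM. The epithelial regulators Grhl2 and Esrp1 had no count in library 3, and the claudin genes Cldn3 and Cldn7 stayed below 1 TPM in every library. Epcam, Cldn4 and Esrp1 were highest in library 2, where the keratinocyte and hair list was highest too, with sums of 33.4, 943 and 7.0 TPM. The part of hair follicle RNA in these values was not tested.

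Mesenchymal genes were expressed beside the keratins. Of 12 genes of the mesenchymal transition list 10 were expressed, with a median of 54.8 TPM over the list against 4.84 TPM over all protein-coding genes. Their summed level was 4429, 5776 and 5789 TPM in libraries 1, 2 and 3. Twist1, Prrx1, Snai2 and Snai1, transcription factors of mesenchymal cells, averaged 98.8 ± 3.16, 76.1 ± 5.62, 68.3 ± 4.35 and 54.3 ± 6.57 TPM. Cdh2, the N-cadherin gene often gained in that transition, was at 0.357 ± 0.161 TPM. In bulk RNA the carcinoma cells and the fibroblasts can both express these genes, and their parts cannot be told apart.

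Mammary differentiation genes were mostly silent. Of 15 hormone receptor and milk genes 4 were expressed, namely the receptor kinase genes Erbb2 (41.9 ± 4.50 TPM) and Erbb3 (3.0 ± 0.753 TPM), the luminal transcription factor Gata3 (28.7 ± 1.87 TPM) and the oestrogen receptor gene Esr1 (9.99 ± 1.59 TPM). The milk protein genes Csn2 and Wap had no count in any library, Pgr had 9, 68 and 11 counts, and Elf5, a regulator of milk-secreting cells, had 2, 24 and 0 counts.

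Genes of growth control were expressed throughout and varied little. All 26 listed tumour suppressors and oncogenes were expressed, with a summed level of 2540 ± 37.8 TPM. Cdkn2a, which encodes the cell cycle inhibitors p16 and p19Arf, was the highest of them at 577, 496 and 526 TPM. The cyclin gene Ccnd1 averaged 373 ± 61.4 TPM, Cdk4 312 ± 15.8 TPM, Myc 211 ± 5.85 TPM, Trp53 137 ± 3.99 TPM and Nras 134 ± 2.71 TPM. The p53 target Cdkn1a was lower, at 42.1 ± 6.48 TPM. All 16 proliferation genes were expressed, led by Top2a at 255 ± 15 TPM, with Mki67 at 141, 147 and 159 TPM.

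**Figure D2:**
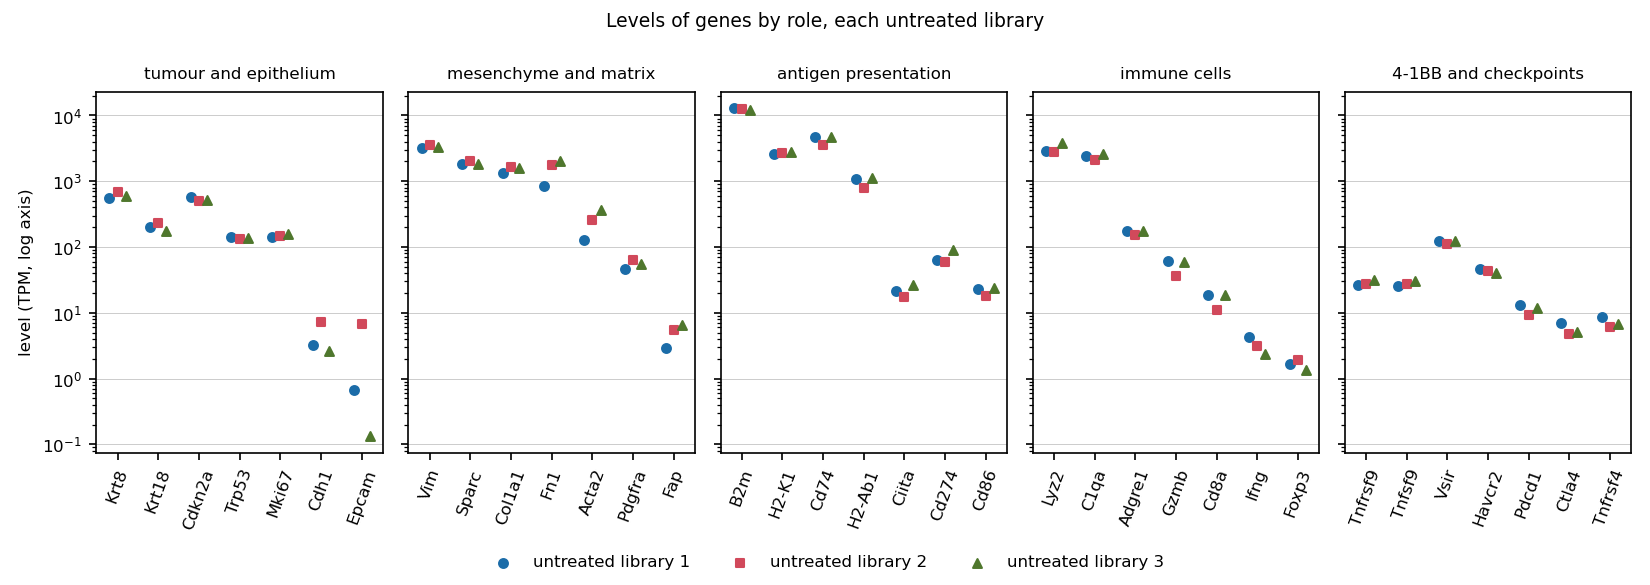
TPM (log axis) of 35 genes grouped by role, 1 symbol per untreated library. Krt8, Krt18, Cdkn2a, Trp53 and Mki67 differ little between libraries, whereas Epcam and Cdh1 are highest in library 2 and Fn1, Acta2 and Fap lowest in library 1.

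Fibroblast genes were among the strongest of all cell type lists. All 16 were expressed, with a median of 149 TPM and summed levels of 6394, 8191 and 7491 TPM in libraries 1, 2 and 3. Sparc, a collagen-binding matrix protein, averaged 1887 ± 109 TPM, and the fibrillar collagen genes Col1a1 and Col3a1 averaged 1533 ± 189 and 1011 ± 197 TPM. The receptor genes Pdgfrb and Pdgfra, which mark fibroblasts, averaged 151 ± 36.8 and 55.0 ± 8.63 TPM. Fap was the lowest of the 16. On chromosome 2 (62331287 to 62404419, minus strand, GRCm39), it had 2.93, 5.42 and 6.48 TPM, highest in library 3 and lowest in library 1.

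The matrix as a group was lowest in library 1. Of 31 matrix and matrix enzyme genes 30 were expressed, and 27 of the 30 with a mean of 1 CPM or more were lowest in library 1. Their sums were 10146, 13965 and 13525 TPM. Fn1, fibronectin, had 836, 1748 and 2051 TPM, and Lox, a collagen cross-linking enzyme, had 38.4, 89.3 and 45.4 TPM. The basement membrane chains Col4a1 and Col4a2, which assemble together, differed in parallel: their TPM ratio was 1.87, 1.86 and 1.95, a coefficient of variation of 2.62% where each gene alone varied by 20.3% to 21.1%. Mmp2, a gelatinase, was an exception to the order, with 732, 596 and 605 TPM. In all, 27 of 44 collagen chain genes and 14 of 22 matrix metalloproteinase genes were expressed. These shares are not far above the 56.2% of all protein-coding genes, and the families were chosen after their values were seen.

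Contractile and inflammatory fibroblast genes were both present. Acta2, smooth muscle actin, had 130, 262 and 360 TPM, and Lrrc15, a surface protein of activated fibroblasts, 35.0, 72.1 and 41.5 TPM. Of 12 contractile genes 11 were expressed, and Cnn1 stayed below 1 TPM. Tpm2, a tropomyosin that skeletal muscle also makes, had 112, 80.7 and 20.3 TPM and was lowest in library 3, as the muscle genes were. Among 12 inflammatory fibroblast genes 9 were expressed. Complement C3 and the chemokine gene Cxcl12 led them at 235 ± 51.0 and 123 ± 6.83 TPM, whereas the cytokine gene Il6 averaged 1.24 ± 0.478 TPM.

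Vessel genes were expressed at moderate levels. All 12 endothelial markers were expressed, with sums of 242, 305 and 274 TPM, and 11 of the 12 were lowest in library 1. Eng, Pecam1 and Cdh5, surface proteins of endothelium, averaged 61.1 ± 7.06, 54.9 ± 4.38 and 44.3 ± 8.68 TPM, and the VEGF receptor gene Kdr 16.0 ± 2.41 TPM. Pericyte and smooth muscle genes summed to 199, 265 and 251 TPM, with 9 of 10 expressed. Lymphatic genes differed more between libraries, and 2 of 6 were expressed. Ccl21a, a chemokine of lymphatic vessels and lymph nodes, had 240, 259 and 1 counts. Prox1, the lymphatic regulator, had 44, 42 and 2 counts. Both were thus nearly absent from library 3 and are not among the 2 expressed genes. Lyve1, which macrophages also express, was expressed, with 9.56, 29.2 and 13.8 TPM.

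Macrophage genes had the highest sum of the 20 cell type lists. All 18 were expressed, with a median of 133 TPM and sums of 9097, 8530 and 10807 TPM. Most of these sums came from Lyz2 and the C1q genes, and by median the fibroblast list was higher, at 149 TPM. The 3 chains of complement C1q were at 2363 ± 248 (C1qa), 1515 ± 172 (C1qb) and 931 ± 124 TPM (C1qc). C1qa and C1qb kept a ratio of 1.58, 1.57 and 1.54, a coefficient of variation of 1.21% against 12.3% and 13.0% for the genes themselves. Csf1r, the growth factor receptor of macrophages, averaged 205 ± 30.1 TPM and its ligand gene Csf1 180 ± 21.7 TPM. Mrc1 and Cd163, scavenger receptors of tissue macrophages, had 89.8, 154 and 152 TPM and 12.3, 39.0 and 28.5 TPM, both lowest in library 1. Arg1 and Nos2, enzymes that compete for arginine, averaged 55.9 ± 8.79 and 22.9 ± 4.26 TPM.

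Other myeloid cells left smaller traces. All 12 dendritic cell genes were expressed, but Fscn1, an actin-bundling protein that carcinoma cells and fibroblasts can also express, made up 412 ± 29.8 of their 556 ± 20.3 summed TPM. Genes more restricted to dendritic cells were low, with Xcr1 and Clec9a of cross-presenting cells at 3.96 ± 0.642 and 4.03 ± 0.780 TPM. Neutrophil genes were low: Ly6g had no count, S100a9 had 18.5, 14.1 and 6.52 TPM, and 5 of 12 were expressed, among them Mmp9, which macrophages also express. With a threshold of 1 CPM in place of 1 TPM, 2 of the 12 passed. No eosinophil or basophil gene of 7 was expressed in all 3 libraries.

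Lymphocyte genes were expressed at low levels and were lowest in library 2. All 15 T cell genes passed 1 TPM, with sums of 206, 131 and 175 TPM, and 13 of the 15 were lowest in library 2. Cd3e, a chain of the T cell receptor complex, had 7.10, 4.33 and 7.01 TPM. The coreceptor genes Cd8a and Cd4 had 18.8, 11.2 and 18.5 TPM and 10.7, 8.24 and 10.9 TPM. Foxp3, the regulator of regulatory T cells, did not follow that order, with 1.64, 1.92 and 1.36 TPM. All 12 natural killer and cytotoxic genes were expressed too, and 10 of them were lowest in library 2. Gzmb, a granzyme of killer cells, had 61.5, 36.2 and 59.8 TPM. Its ratio to Cd8a was 3.28, 3.23 and 3.24, a coefficient of variation of 0.769% where each gene varied by over 28%. That spread is below the counting error of the Cd8a reads, so it does not measure how closely the 2 genes are tied. The pair was chosen after its values were seen. Some granzyme genes are near copies of each other, and how reads were split among granzyme genes is uncertain. Ncr1, a natural killer receptor gene, averaged 11.8 ± 3.20 TPM, and Ifng, interferon gamma, had 4.29, 3.13 and 2.40 TPM.

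The B cell gene Ms4a1 was sparse while antibody transcripts were not. Ms4a1, a B cell surface gene, had 5 to 9 counts per library. Igkc, the kappa light chain constant region, had 161, 76.3 and 190 TPM, and Ighm, the mu heavy chain, 101 ± 12.1 TPM. Among 7 of 12 B and plasma cell genes that were expressed, none reached a 4-fold difference between libraries. Ighg2c, a heavy chain gene outside the list chosen after its values were seen, had 431, 38 and 369 counts, and so stood low in library 2 alone; heavy chain constant genes differ between mouse strains, which makes this value uncertain.

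The 4-1BB receptor and its ligand were both measurable without treatment. Tnfrsf9, on chromosome 4 (150999019 to 151030559, plus strand), had 26.2, 27.7 and 31.6 TPM. Tnfsf9, on chromosome 17 (57412325 to 57414757, plus strand), had 25.8, 27.7 and 31.0 TPM. Receptor and ligand transcripts thus stood at nearly equal levels, with a ratio of ligand to receptor of 0.984, 0.997 and 0.981. The receptor was higher than the T cell receptor chain Cd3e in each library, and it varied by 9.98% between libraries where Cd3e varied by 27.5%.

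Of 22 genes of the Fap, 4-1BB and checkpoint list 21 were expressed. The highest were Sirpa (186 ± 14.1 TPM) and Cd47 (129 ± 2.86 TPM), a receptor and ligand pair that restrains phagocytosis, and Vsir (119 ± 6.32 TPM), which encodes the checkpoint protein VISTA. Cd274, which encodes PD-L1, had 63.4, 60.1 and 89.1 TPM and was highest in library 3. Its receptor gene Pdcd1 had 13.2, 9.28 and 12.0 TPM. Havcr2, Tigit, Lag3 and Ctla4, further inhibitory receptor genes, averaged 43.1 ± 2.91, 27.8 ± 1.32, 20.2 ± 3.94 and 5.61 ± 1.24 TPM. The costimulatory receptor genes Tnfrsf18 (GITR) and Tnfrsf4 (OX40) were below Tnfrsf9, at 8.21 ± 1.79 and 7.14 ± 1.27 TPM, and only Tnfsf4, the OX40 ligand gene, missed 1 TPM in a library of this list.

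MHC class I genes were high and even. All 13 were expressed, with sums of 26512, 25896 and 26227 TPM, or 2.62% of all TPM. The peptide transporter genes Tap1 and Tap2 averaged 251 ± 17.6 and 248 ± 21.4 TPM, and Nlrc5, the activator of class I genes, 238 ± 26.0 TPM.

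MHC class II genes were high too and were lowest in library 2. All 12 were expressed, with sums of 13119, 9525 and 12410 TPM, and all 11 with a mean of 1 CPM or more were lowest in library 2. Cd74 had 4765, 3513 and 4640 TPM, H2-Aa 782, 560 and 718 TPM, H2-Ab1 1082, 799 and 1138 TPM and H2-Eb1 1477, 1041 and 1384 TPM. The hair, fat and red cell lists were highest in library 2, and their part in its lower lymphocyte and class II values was not tested. Ciita, the activator that class II genes depend on, had 21.8, 17.2 and 26.7 TPM. The ratio of Cd74 to H2-Ab1 was nearly constant, at 4.40, 4.40 and 4.08. H2-Ea-ps, annotated as a polymorphic pseudogene because the gene is broken in the reference strain and intact in some others, had 2470, 1624 and 2140 TPM. MHC genes vary between strains, and reads of another haplotype can map unevenly, so comparisons between MHC genes are uncertain.

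Class II promoters are known for a conserved box that holds the letters CCAAT, read as ATTGG on the other strand and bound by the factor NF-Y. The promoters of H2-Aa and H2-Eb1 are shown because both genes are among the highest in these tumours and shift together between libraries. H2-Ab1, which was higher than H2-Aa, had no RefSeq promoter entry and could not be shown. They are the 150 bases before the RefSeq start on GRCm38.p6, at chr17:34287824-34287973 (minus strand) and chr17:34305717-34305866 (plus strand), with each match in capitals.
H2-Aa: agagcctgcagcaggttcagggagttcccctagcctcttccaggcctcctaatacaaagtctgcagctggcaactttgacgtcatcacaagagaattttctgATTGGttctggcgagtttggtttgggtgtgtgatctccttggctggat
H2-Eb1: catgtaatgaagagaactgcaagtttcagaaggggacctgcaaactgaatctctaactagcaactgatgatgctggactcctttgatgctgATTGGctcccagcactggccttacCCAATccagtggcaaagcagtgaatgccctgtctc

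The H2-Aa stretch holds 1 match, whose first base lies 48 bases before the start, and the H2-Eb1 stretch holds 2, at 59 and 35 bases before it. These letters are common: 24.5% of 32851 promoter stretches of the same length hold them on either strand, and 27.2% of those of expressed genes do. A match is therefore a description and not a site.

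Secreted signals were broad. Of 26 chemokine genes 24 were expressed, with sums of 2583, 2705 and 2925 TPM. Ccl8 led them and was even at 701 ± 16.7 TPM, followed by the interferon-inducible Cxcl9 with 319, 198 and 331 TPM. The monocyte chemokine genes Ccl6 and Ccl12 averaged 268 ± 52.8 and 264 ± 61.8 TPM, whereas the neutrophil chemokine genes Cxcl1 and Cxcl2 averaged 8.36 ± 2.49 and 1.79 ± 0.353 TPM, and Ccl20 had 1 count in all. Among 28 cytokines and growth factors 23 were expressed. Mif led them at 1252 ± 99.5 TPM. The 3 transforming growth factor beta genes were at 184 ± 22.2 (Tgfb3), 91.7 ± 10.6 (Tgfb1) and 27.9 ± 2.21 TPM (Tgfb2), Vegfa had 68.7, 110 and 122 TPM, and Il1b had 90.6, 49.6 and 55.5 TPM. Of 18 growth factor receptors 15 were expressed, with Axl highest at 438 ± 55.5 TPM and Met at 95.0 ± 3.59 TPM. Its ligand gene Hgf averaged 2.36 ± 0.655 TPM. All 12 toll-like receptor genes were expressed, as were 23 of 27 integrin chain genes, against 56.2% of all protein-coding genes.

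Genes of metabolism and stress responses were also expressed. All 18 hypoxia and glycolysis genes were expressed, with a summed level of 11014 ± 492 TPM. The glycolytic enzyme genes Pkm and Ldha averaged 1865 ± 76.2 and 1413 ± 60.2 TPM, and Car9, a carbonic anhydrase of hypoxic cells, had 317, 375 and 274 TPM. Nuclear respiratory chain genes summed to 4469 ± 292 TPM, and 15 of 18 were highest in library 1. All 20 interferon response genes were expressed, with Bst2 at 1390 ± 120 TPM and Isg15 at 444 ± 41.5 TPM, and 18 of the 20 were highest in library 3. The sums were close all the same, at 3879, 3533 and 4232 TPM. All 16 immediate early and heat shock genes were expressed, with Fos at 34.9, 35.2 and 34.2 TPM.

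Transcripts of the inactive X chromosome were present and those of the Y chromosome were not. Xist, made from the inactive X chromosome, had 37.8, 56.9 and 65.9 TPM, and the 6 listed genes of the Y chromosome had no count in any library, which allows at most 3 counts each. Of 13 imprinted genes 5 were expressed. H19, an imprinted RNA, had 77.8, 54.7 and 9.23 TPM, whereas its neighbour Igf2 had 3, 0 and 0 counts.

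Hox genes, whose clusters keep a record of body position, were expressed mainly from 1 cluster, and 17 of 39 passed the rule. The Hoxa genes on chromosome 6 summed to 281 ± 13.8 TPM, against 10.5 ± 2.36 TPM for Hoxb, 15.9 ± 2.76 TPM for Hoxc and 10.4 ± 0.750 TPM for Hoxd. Hoxa7 and Hoxa5 led at 84.0 ± 5.97 and 76.1 ± 5.47 TPM. Hoxa10 averaged 28.0 ± 2.48 TPM, while Hoxa11 had no count and Hoxa13 had 1 count in all. Hoxc13, a regulator of hair keratin genes, stood apart with 2, 68 and 0 counts, highest in the library with hair keratins.

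The 3 libraries were alike over most genes. Across the 13942 genes with a mean of 1 CPM or more, pairs of libraries had a Pearson r of 0.978 to 0.984 on the log2 scale, a description across genes, which are not independent replicates. The median coefficient of variation was 9.05%, and 7.21% over the 4971 genes at 50 CPM or more, of which 68.9% varied by less than 10%. The most even were Tor1b, Zdhhc18 and Metap1, with coefficients of variation of 0.11%, 0.142% and 0.175%, all below the counting error of their own reads. The 14 housekeeping genes, all expressed, summed to 36568 ± 269 TPM, the 89 ribosomal protein genes, 86 of them expressed, to 96923 ± 3958 TPM and the mitochondrial genes to 36714 ± 1532 TPM. Replication-dependent histone genes, whose transcripts lack the poly(A) tail that these libraries select, summed to 280 ± 31.8 TPM. The spread was above the counting error for 87.0% of the genes. A spread of 3 values can pass that error by counting alone, and the share of genes that would do so was not computed. Over the 15561 genes kept by the filter of edgeR the common biological coefficient of variation was 0.154, and over 28268 genes without that filter it was 0.234.

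A small set of genes departed widely. In 196 of the 13942 genes (1.41%) the highest library was at least 4 times the lowest, after adding 0.5 CPM. Library 2 was the highest for 141 of them, library 1 for 47 and library 3 for 8. Library 3 was the lowest for 175. With library 2 left out 78 genes reached a 4-fold difference, and with 2 CPM added in place of 0.5 CPM 98 did. Cell type lists held 47 of the 196, with 17 skeletal muscle genes, 9 of keratinocytes and hair, 6 basal epithelial, 5 adipocyte, 4 luminal and 3 mast cell genes.

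**Figure D3:**
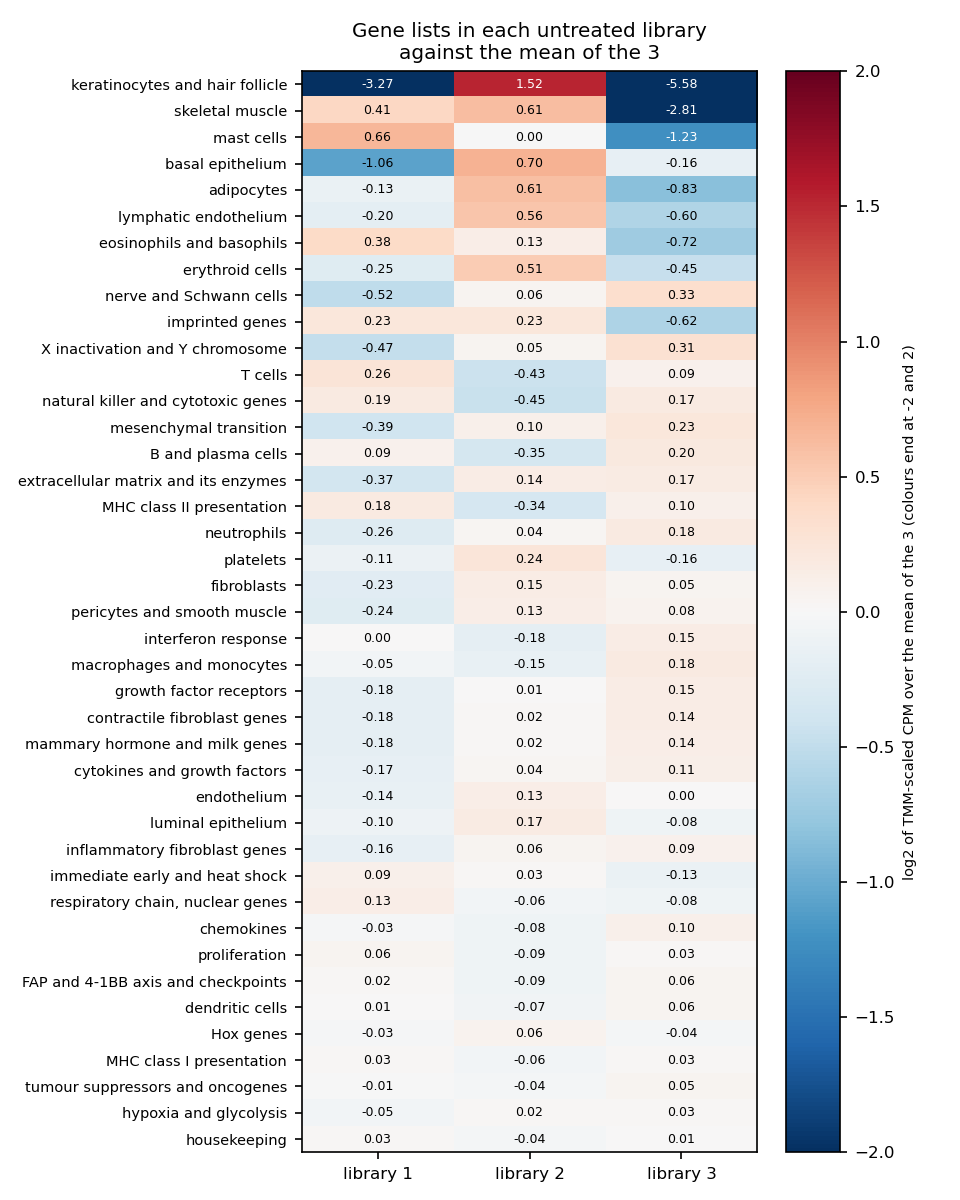
Log2 of the TMM-scaled CPM of each gene list over its mean of the 3 untreated libraries, with lists ordered from the widest to the narrowest spread. Keratinocyte and hair genes stand at 1.52 in library 2 and -5.58 in library 3, skeletal muscle genes at -2.81 and mast cell genes at -1.23 in library 3, whereas housekeeping and class I lists stay near 0.

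Hair follicle genes were high in library 2 and low in the others, so that 2 of the 18 keratinocyte and hair genes met the rule of 1 TPM in all libraries. The inner root sheath, the layer that guides the growing hair shaft, is built from the keratins Krt25, Krt27, Krt28, Krt71, Krt72 and Krt73 and from trichohyalin (Tchh). Krt71 had 176, 6900 and 6 counts in libraries 1, 2 and 3, or 7.85, 298 and 0.267 TPM. Tchh had 295, 11339 and 35 counts, Krt25 143, 4359 and 5 counts, and Krt27 54, 2570 and 5 counts. On the scale with 0.5 CPM added, the highest over the lowest library was 269-fold for Krt71, 201-fold for Tchh, 178-fold for Krt25 and 105-fold for Krt27. The hair shaft keratins Krt86 and Krt35 followed with 14, 542 and 1 counts and 7, 341 and 1 counts. Among all 53 keratin genes 28 had a mean of 1 CPM or more, and 23 of these reached a 4-fold difference, each highest in library 2 and lowest in library 3. All 18 keratin-associated protein genes at that level did so too, with sums of 28.9, 819 and 2.30 TPM. Those 18 genes and most of the keratins reached a mean of 1 CPM only through library 2. Their 4-fold difference thus largely follows from the filter, and these counts are not a separate result.

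Genes of the cornifying epidermis followed that pattern in part. Ivl, a protein of the cornified envelope, had 0, 45 and 0 counts and the desmosome gene Dsg1a 11, 303 and 0 counts. Flg and Krt2, however, had no count in any library, Krt1 had 5, 0 and 0 counts, and Krt10 was lowest in library 2, at 4.98, 2.86 and 3.45 TPM. The basal keratin genes Krt5, Krt14 and Krt17, which the outer layers of the follicle also express, did follow it, with 40, 1279 and 3 counts, 24, 804 and 2 counts, and 26, 980 and 3 counts. Adipocyte genes, of which 6 of 12 were expressed, were highest in the same library: their sums were 84.3, 180 and 44.2 TPM, and Cfd, the fat-secreted complement factor D, had 25.2, 80.5 and 9.60 TPM.

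The promoters of 4 of these genes are shown because the genes shift together over the widest range of any in the libraries. They are the 150 bases before the RefSeq start on GRCm38.p6, and the letters TATAAA, a form of the TATA box searched on both strands, are in capitals. Krt25 lies at chr11:99322952-99323101, Krt27 at chr11:99351119-99351268 and Krt71 at chr15:101743098-101743247, all on the minus strand, and Tchh at chr3:93442180-93442329 on the plus strand.
Krt25: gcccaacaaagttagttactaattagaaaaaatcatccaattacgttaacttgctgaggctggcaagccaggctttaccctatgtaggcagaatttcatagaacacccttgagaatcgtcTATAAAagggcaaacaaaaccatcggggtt
Krt27: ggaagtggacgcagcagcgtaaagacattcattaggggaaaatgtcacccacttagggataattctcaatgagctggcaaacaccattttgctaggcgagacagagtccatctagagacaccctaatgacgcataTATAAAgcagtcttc
Krt71: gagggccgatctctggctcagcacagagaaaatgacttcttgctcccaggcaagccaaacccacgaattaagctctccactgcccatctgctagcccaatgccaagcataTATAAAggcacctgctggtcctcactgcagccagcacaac
Tchh: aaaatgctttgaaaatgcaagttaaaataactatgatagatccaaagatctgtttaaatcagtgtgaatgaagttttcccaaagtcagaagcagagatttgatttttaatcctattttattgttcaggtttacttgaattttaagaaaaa

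The 3 keratin stretches hold 1 match each, whose first base lies 30, 15 and 40 bases before the start in Krt25, Krt27 and Krt71. The Tchh stretch holds none, which says only that these letters are not in this window. Of the keratin and keratin-associated genes among the 196, 29 were matched to a RefSeq promoter, and 21 of their stretches (72.4%) hold TATAAA. The letters are in 31.0% of the 158 stretches matched to 138 of the 196 genes, in 3.59% of the stretches of expressed genes and in 7.57% of all 32851 stretches. The 158 include those of the keratin and keratin-associated genes, which were picked from these same libraries. Here too a match is a description and not a site, and a tie to the shift between libraries was not tested.

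**Figure D4:**
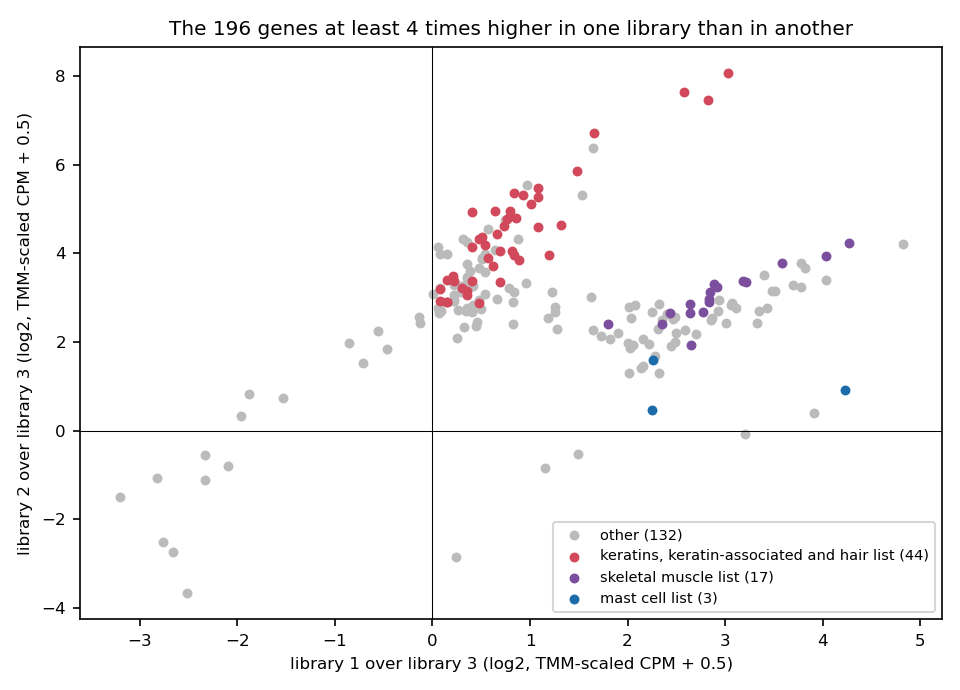
Each point is 1 of the 196 genes at least 4 times higher in one untreated library than in another, placed by log2 of library 1 over library 3 and of library 2 over library 3 (TMM-scaled CPM with 0.5 added). The 44 keratin, keratin-associated and hair genes form an arm that is high in library 2, and the 17 skeletal muscle genes an arm that is low in library 3.

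Skeletal muscle genes were low in library 3. All 17 of the list with a mean of 1 CPM or more reached a 4-fold difference, each lowest in library 3. By the rule of 1 TPM 12 of the 18 listed genes were expressed, with sums of 830, 1005 and 87.1 TPM. Acta1, the skeletal muscle actin, had 312, 376 and 25.3 TPM, and the myosin gene Myh4 of fast fibres 68.4, 95.5 and 9.12 TPM. The muscle creatine kinase gene Ckm had 44.0, 57.9 and 5.38 TPM. Myh7, the myosin of slow fibres, had 4, 0 and 0 counts. Des and Xirp2, muscle genes outside the list that were among the 8 furthest above the others in library 1, had 84.0, 60.3 and 5.78 TPM and 1349, 945 and 31 counts.

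Mast cell genes differed as a group. All 10 were expressed and lowest in library 3 and, by TPM, 9 of them were highest in library 1, with sums of 623, 385 and 144 TPM. Cpa3, the carboxypeptidase of mast cell granules, had 89.6, 66.7 and 27.1 TPM, and Fcer1a, a chain of the IgE receptor, 19, 14.9 and 5.55 TPM. The protease genes of connective tissue mast cells, Mcpt4, Cma1 and Tpsb2, had 172, 113 and 35.2 TPM, 90.6, 78.2 and 21.9 TPM, and 107, 77.2 and 34.4 TPM. Mcpt1, a protease of mucosal mast cells, differed more steeply. It had 814, 71 and 27 counts and was the gene furthest above the other libraries in library 1, so its ratio to Mcpt4 was 0.454, 0.0584 and 0.0736. Mcpt2, its close relative, had 544, 158 and 102 counts; reads of the Mcpt genes may be split between near copies, which leaves each value uncertain. Kit, the stem cell factor receptor gene, was the exception by TPM, at 5.16, 5.25 and 3.80 TPM. By CPM all 10 genes, Kit among them, were highest in library 1.

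Of the 196 genes with a 4-fold difference 8 were highest in library 3. Among them Mgp, an inhibitor of mineralisation, had 43.8, 108 and 229 TPM, and Notum, a secreted inhibitor of Wnt proteins, 7.53, 20.6 and 35.1 TPM. Of 10 nerve and Schwann cell genes 5 were expressed, with sums of 30.3, 59.9 and 74.5 TPM. Retnla, a secreted protein of alternatively activated macrophages that is not among the 196, had 21.3, 52.6 and 81.5 TPM. Mgp, Notum and Retnla were all lowest in library 1.

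Haemoglobin transcripts were measurable in all 3 libraries. Of 7 erythroid genes 5 were expressed, and of 6 platelet genes 3, against 56.2% of all protein-coding genes. The haemoglobin genes Hbb-bs and Hba-a1 had 134, 235 and 118 TPM and 56.5, 98.7 and 48.3 TPM, and their ratio was 2.37, 2.38 and 2.45. The platelet chemokine gene Pf4 had 48.4, 69.1 and 49.2 TPM, most of the platelet list's sums of 54.3, 76.6 and 54.8 TPM. Another 3 of the 6 platelet genes were below 1 TPM in every library. Whether the Pf4 transcripts came from platelets was not tested.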

How the data were processed

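Polyadenylated RNA of 3 untreated tumour libraries was prepared with a TruSeq stranded kit and sequenced paired-end, per the labels' protocols. Each deposited file gives unnormalised counts per gene and the gene's exon length, made with featureCounts 1.6.0 by strand on GRCm39, per the file headers. STAR 2.7.9a is named per the submitters' processing notes. Symbols came from GENCODE M21 by gene identifier (51948 of 56884 genes, 91.3%), and genes without one took 0.564% to 0.959% of the counts.

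TPM were computed from counts and length, and CPM were scaled by TMM with edgeR 4.0.16 in R 4.3.3. The common biological coefficient of variation is edgeR's for 1 group, over 15561 genes kept by filterByExpr. Ratios between libraries used genes with a mean of 1 CPM or more and 0.5 CPM added, and variation of single genes is that of the scaled CPM. With 1 group no test was made. A count of 0 allows up to 3 counts, for counting error only. The steps were tested on simulated counts, with changes wider than 4-fold in genes of 5 CPM or more. Calls at the lower minimum of 1 CPM were not covered by that simulation.

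The libraries and the 44 lists (20 cell types, 21 states, 3 technical classes) were chosen with earlier results of these data known. Of 827 list entries 825 were found by name, all but Ahsp and H2-L. Genes were named from the 20 highest, the 6 highest members of each list and members at 0, the 15 widest ratios and the 8 furthest above the others per library at 5 CPM or more, the 10 most even at 50 CPM or more, and 13 genes of the study's targets and controls. Gene families, gene pairs and genes outside that rule were chosen after their values were seen. A few genes that the rule names are not reported here. Other scalings, thresholds and filters were tried, and each library was left out in turn.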

Additional observations from a re-analysis of the deposited data

How the results depend on the processing

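The number of expressed genes, 14496, lay between 13290 (at least 1 CPM) and 16042 (at least 0.5 TPM) under other thresholds and between 14687 and 14955 with 1 library left out. The number of genes with a 4-fold difference, 196, was 201 with library totals, 196 with RLE factors, 253 without the filter on low counts and 98 with 2 CPM added. It lay between 78 (without library 2) and 199 (without library 1) with 1 library left out. The common biological coefficient of variation, 0.154, was 0.234 without the filter, and between 0.139 (without library 1) and 0.179 (without library 2) with 1 library left out. Of 609 different list members 464 were expressed, and 457 at 1 CPM. With mitochondrial and ribosomal protein genes left out of the total, the sums of the 41 lists without ribosomal protein genes were 1.16 times as high and that of the housekeeping list 1.08 times, a shift of over 1 SD for 25 of the 42. With TMM-scaled counts per kilobase the named genes stood at 0.973 to 1.02 times their TPM. No paired analysis was possible because there is 1 group and no test. Counts below about 10 limit the values of near-silent genes, and with 3 libraries an SD is itself imprecise.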
